A study of Mus musculus with 24 samples.

Results

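KPnull cells, a mouse pancreatic ductal adenocarcinoma (PDAC) line without p53, were compared after doxycycline had switched on a p53 form mutated in its first transactivation domain (TAD1m) or a vector without a cDNA (Vector). The comparison rests on 4 of the 24 samples of the series, 2 TAD1m and 2 Vector, all taken after 48 hours of doxycycline at 1 µg/ml. They belong to a set of 10 KPnull samples that also holds wild-type p53 (p53WT), p53 mutated in the second domain (TAD2m) and p53 mutated in both (TAD12m), with n = 2 in each of the 5 groups. All 10 were grown in DMEM with 10% serum on collagen-coated plates and carry the same kind of inducible construct, so the Vector samples also met the drug and the vector. The growth protocol gives doxycycline to all KPnull cells, while the series text speaks of cells with or without it, and all 10 samples were taken as on the drug. The substituted residues, the species of the p53 cDNA and whether each line is a clone or a pool are not given in the sources used here. Nothing in the labels says that the duplicates came from separate cultures, so the p-values measure the spread between these samples only.

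p53, encoded by Trp53, binds DNA as a tetramer and activates nearby genes through 2 short acidic stretches at its amino end, the first and second transactivation domains. In pancreatic cancer it is known for halting the cell cycle, triggering cell death and reshaping metabolism through its target genes. Mutants of one domain are used to ask which targets still respond when part of the activating surface is lost.

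Each library held 15078880 to 19431250 counts in the 4 samples, and 13657592 to 19431250 over all 10. Mitochondrial genes took 2.25% to 2.51% of the counts in the 4 samples. Of 8 ductal markers, 7 were above 1 count per 1000000 counts of the scaled library (CPM) in at least 1 of the 4 samples. Krt8, a keratin of ductal epithelium, reached 1842 CPM. The ductal marker Epcam was under 1 CPM. The 12 fibroblast markers were all under 1 CPM, and 8 of them, Col3a1 and Dcn included, were at 0 in the 4 samples. Of the markers of immune, endothelial and acinar or endocrine cells, 13 of 16, 9 of 10 and 13 of 15 were under 1 CPM.

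Genes were called at an adjusted p under 0.05 in edgeR's quasi-likelihood test with Benjamini-Hochberg adjustment over the 15075 genes tested. TAD1m changed 5494 of them (36.4%), with 2860 higher (19%) and 2634 lower (17.5%) than Vector. The rises were larger than the falls. At least 2-fold changes were called for 761 higher genes (5.05%) and 172 lower genes (1.14%), and a log2 change of 2 or more in size for 261 higher and 25 lower genes. The median log2 change was 0.57 among genes called higher, -0.35 among genes called lower and -0.01 over all genes tested. The count of lower genes was 1593 without TAD1m replicate 2, and every log2 change below is TAD1m minus Vector with the standard error (SE) of the fit unless another pair is named.

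**Figure D1:**
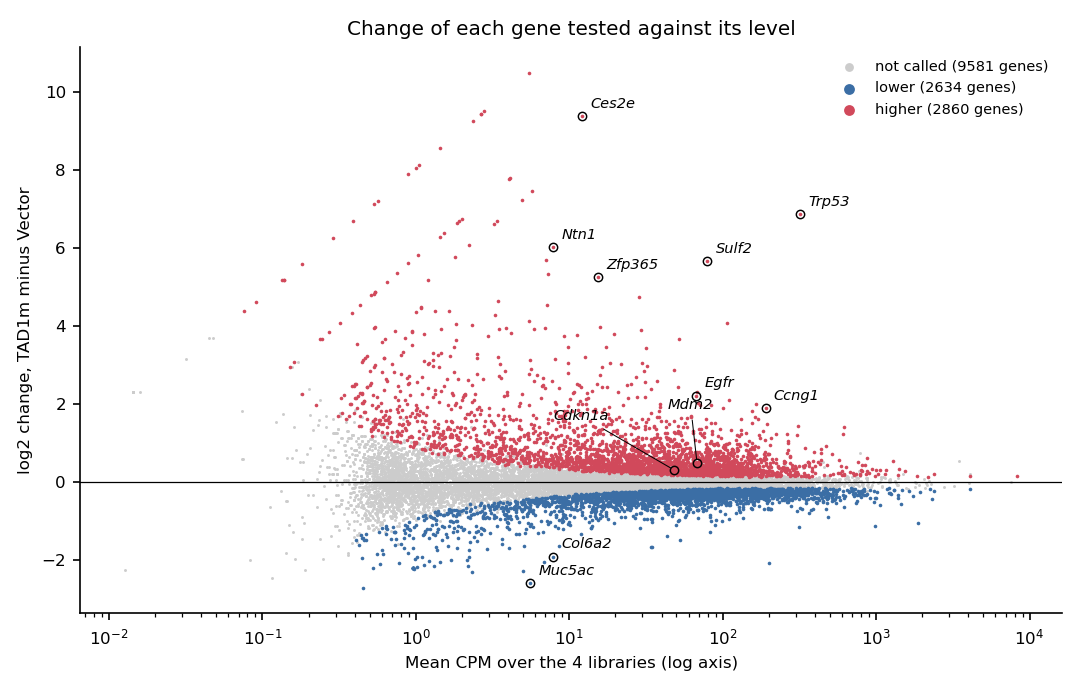
Log2 change of each gene tested, TAD1m minus Vector, against its mean CPM over the 4 libraries on a log axis. Red points were called higher (2860 genes), blue points lower (2634 genes) and grey points not called (9581 genes), and rises reach further from 0 than falls.

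Trp53 itself was read first. The gene lies at chr11:69580359-69591873 (mm10), and its level was 6.12 and 4.53 CPM in the 2 Vector libraries and 622 and 653 CPM in the 2 TAD1m libraries, a log2 change of 6.88 ± 0.11 (adjusted p = 1.8e-17). With p53WT it was 648 and 686 CPM, and TAD1m minus p53WT was -0.07 ± 0.06 (adjusted p = 0.45), so no difference in transcript was detected between the mutant and the intact form. TAD2m, at 529 and 524 CPM, and TAD12m, at 552 and 579 CPM, were both called lower than TAD1m. The counts cannot separate the cDNA from transcripts of the cells' own locus.

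Of 73 p53 target genes in 6 lists ordered by role, 71 were tested and 2, Rprm and Trp73, did not reach the filter on low counts. With TAD1m 46 of the 71 rose (64.8% against 19% of all genes), 3 fell and 22 missed the threshold, the median log2 change being 0.65. Set directly against p53WT, 36 of the 71 were lower and 15 were higher with TAD1m, where 18.7% of all genes were called lower and 20.4% higher. These lists were compiled from published targets, and the same samples were known when they were drawn up.

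Among the genes that feed back on p53 or its signal, 4 of 7 tested rose (57.1% against 19% of all genes). The other 3 did not pass. Ccng1, a cyclin that recruits a phosphatase to the p53 circuit, was at 82.9 and 78.4 CPM with Vector and 311 and 289 CPM with TAD1m. The groups lay far apart, with a log2 change of 1.89 ± 0.08 (adjusted p = 6e-10), yet p53WT reached 623 and 650.0 CPM. Mdm2, the ubiquitin ligase that removes p53, moved from 56.3 and 56.5 CPM to 82.5 and 76.8 CPM. Its rise of 0.50 ± 0.07 (adjusted p = 1.9e-05) was small beside p53WT at 267 and 272 CPM, and TAD1m minus p53WT was -1.76 ± 0.06 (adjusted p = 5.7e-12). Trp53inp1, which promotes p53 phosphorylation and autophagy, rose from 6.32 and 6.5 CPM to 51.8 and 54.4 CPM, by 3.05. Phlda3, a repressor of AKT at the membrane, rose by 0.95. Ppm1d (log2 change -0.12), Rchy1 (0.03) and Mdm4 (-0.14) did not pass.

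Among the cell-cycle arrest targets, Cdkn1a lay furthest below its level with the intact protein. Cdkn1a (chr17:29093781-29100727), the p21 inhibitor of cyclin-dependent kinases, stood at 38.6 and 47.5 CPM with Vector, 54.3 and 52.5 CPM with TAD1m and 401 and 358 CPM with p53WT. The TAD1m libraries lay just above both Vector libraries, with a log2 change of 0.32 ± 0.09 (adjusted p = 0.0093). That call was not kept without Vector replicate 1 (adjusted p of 0.2) or without TAD1m replicate 1 (adjusted p of 0.088). TAD1m minus p53WT was -2.83 ± 0.08 for Cdkn1a (adjusted p = 1.6e-12). Zmat3, an RNA-binding protein of the p53 program, behaved otherwise, with 65.6 and 67.1 CPM with Vector, 259 and 271 CPM with TAD1m and 256 and 271 CPM with p53WT. Its log2 change was 2.00 ± 0.06 against Vector and 0.01 ± 0.05 against p53WT, where the adjusted p was 0.93. Btg2, an antiproliferative factor, rose by 1.05 and differed from p53WT by -1.59. Gtse1 rose by 0.62 and Ccng2 by 0.45. Plk2 rose by 0.20, a call not kept without TAD1m replicate 1 (adjusted p of 0.056) or replicate 2 (adjusted p of 0.058). Sfn, at about 1 CPM or less in all 4 libraries, rose by 1.68, and this was not kept without TAD1m replicate 1 (adjusted p of 0.11), without Vector replicate 1 (adjusted p of 0.12) and with DESeq2 (adjusted p = 0.14). Gadd45a (0.24) and Plk3 (-0.39) did not pass, though Plk3 was called lower without Vector replicate 1 (adjusted p of 0.014). In all, 7 of 9 rose (77.8% against 19% of all genes), and fewer rose without TAD1m replicate 1.

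Apoptosis targets were split, with 8 of 14 higher (57.1% against 19% of all genes) and 6 not passing. Apaf1 (chr10:90989318-91082770), the core of the apoptosome, was at 29.1 and 27.97 CPM with Vector and 114 and 113 CPM with TAD1m, a log2 change of 1.99 ± 0.07 (adjusted p = 2.4e-12). With p53WT it was 54.97 and 56.8 CPM, so TAD1m exceeded the intact protein by 1.02 ± 0.06 (adjusted p = 3.9e-09). Fas, a death receptor, went from 0.561 and 0.525 CPM to 7.56 and 7.98 CPM, by 3.81. Bax, a pore former of the mitochondrial membrane, rose by 0.88 and lay 0.41 above p53WT. Siva1, a death factor, rose by 0.91 and lay 0.63 above p53WT. Exons of Bax overlap other tested genes over 12.2% of their length, and counting took both strands. Pmaip1, which encodes the BH3-only protein NOXA, did not pass, at 139 and 135 CPM with Vector and 138 and 128 CPM with TAD1m. With p53WT, Pmaip1 was 229 and 226 CPM, above all 4 libraries. Bbc3, which encodes PUMA, was at 5.45 and 8.47 CPM and 10.8 and 10.1 CPM, a log2 change of 0.61 ± 0.28 (adjusted p = 0.13) that passed without Vector replicate 2 (adjusted p of 0.035), with no filter on low counts (0.0003) and with the 4 libraries alone (0.022). Pidd1 (0.82), Perp (0.65), Aen (0.43) and the death receptor Tnfrsf10b (0.42) rose. Bid (0.04), Ei24 (-0.0043), Bak1 (0.12) and Triap1 (0.24) did not pass. Bak1 was called without Vector replicate 2 (adjusted p of 0.023) and Triap1 without Vector replicate 1 (adjusted p of 0.031).

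Of 8 DNA repair targets 3 rose (37.5% against 19% of all genes) and 5 did not pass. Polk, a translesion polymerase, rose from 15.4 and 14.6 CPM to 35.3 and 35.8 CPM, by 1.24 ± 0.08 (adjusted p = 5.6e-09). Ercc5, a nuclease of nucleotide excision repair, rose by 1.11. Mgmt, which removes alkyl groups from guanine, stayed under 1 CPM in all 4 libraries and rose by 2.50, a call not kept without Vector replicate 1 (1.65, adjusted p of 0.053), while the value was 3.86 without Vector replicate 2. Ddb2 (-0.23), Fancc (-0.19), Rrm2b (0.05), Polh (-0.18) and Xpc (0.19) did not pass.

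Metabolic and stress targets held several of the steepest rises. Of 17 tested, 11 were higher and 2 lower (64.7% and 11.8%, beside 19% and 17.5% of all genes). Dram1 (chr10:88322804-88357075), a lysosomal membrane protein that promotes autophagy, was at 0.765 and 0.919 CPM with Vector and 14.03 and 12.1 CPM with TAD1m, a log2 change of 3.96 ± 0.26 (adjusted p = 3.3e-10). The p53WT libraries, at 0.876 and 1.09 CPM, stayed near Vector, and TAD1m minus p53WT was 3.73 ± 0.26 (adjusted p = 8.5e-10). Pltp, a phospholipid transfer protein, rose from 2.6 and 2.56 CPM to 35.2 and 37.4 CPM, by 3.81, and lay 1.90 above p53WT. Its exons overlap other tested genes over 19.3% of their length. Ak1, an adenylate kinase, rose from 0.561 and 0.919 CPM to 10.9 and 11.1 CPM, by 3.92, and differed from p53WT by -1.62. Gls2, the p53-responsive glutaminase, was at 11.6 and 9.45 CPM, 17.1 and 16.9 CPM with TAD1m and 8.005 and 9.22 CPM with p53WT. It rose by 0.68 ± 0.12 (adjusted p = 0.00023) with TAD1m and lay 0.98 ± 0.12 above p53WT (adjusted p = 8e-06). Acad11 (1.43), Lpin1 (0.97), the autophagy kinase Ulk1 (0.93), Sesn2 (0.90), Aldh4a1 (0.81), Ddit4 (0.48) and Gpx1 (0.46) rose. Prkab1 fell by 0.22, a call not kept without TAD1m replicate 1 (adjusted p of 0.084). Tigar fell by 0.22, a call not kept without Vector replicate 1 (adjusted p of 0.064) or replicate 2 (adjusted p of 0.062), without TAD1m replicate 2 (adjusted p of 0.15) and with DESeq2 (adjusted p = 0.11). Sesn1 (0.16), Sesn3 (0.04), Pank1 (-0.11) and Cpt1c (1.26) did not pass.

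The membrane and signalling targets gave the highest median of the 6 lists, 2.04. Of 16 tested, 13 were higher and 1 lower (81.25% and 6.25%, beside 19% and 17.5% of all genes). Sulf2 (chr2:166073089-166155663), an extracellular sulfatase that edits heparan sulfate, was at 3.06 and 3.09 CPM with Vector, 153 and 158 CPM with TAD1m and 92.3 and 93.6 CPM with p53WT. Its log2 change was 5.66 ± 0.12 (adjusted p = 1.6e-16), and it lay 0.74 ± 0.06 above p53WT (adjusted p = 8.3e-08). Zfp365, a zinc finger protein of genome maintenance, rose from 0.918 and 0.591 CPM to 30.5 and 29.5 CPM, by 5.27, and Crip2, a LIM-domain protein, from 10.9 and 13 CPM to 204 and 199.9 CPM, by 4.09. Crip2 lay 0.94 above p53WT. Tap1, a subunit of the peptide transporter that loads MHC class I, had 2 counts in the 2 Vector libraries together and 224 with TAD1m. The ratio of its levels was 118, with a 95% counting interval of 32.3 to 979.5. Kank3 (2.48), Rgs12 (2.31), Dcxr (2.26), the lysophospholipase Abhd4 (2.11), the phosphatase Ptp4a3 (1.98), Arap2 (1.62), Sidt2 (1.34), Rap2b (0.42) and Ckap2 (0.26) rose, and exons of Rap2b overlap other tested genes over 58.3% of their length. Cd82 (0.04) and Epha2 (0.14) did not pass, and Epha2 was called higher without Vector replicate 2 (adjusted p of 0.044).

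**Figure D2:**
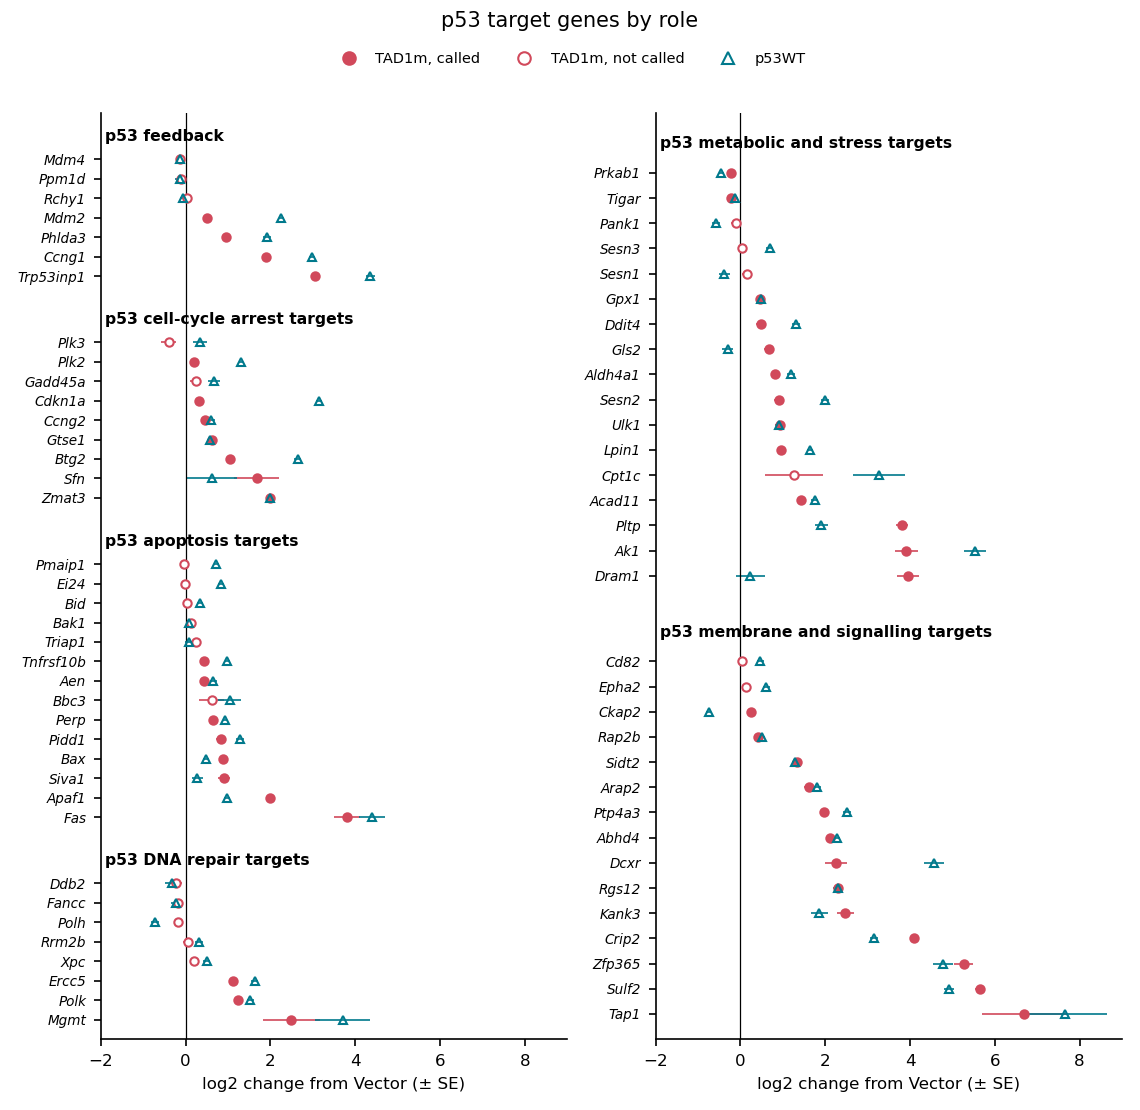
Log2 change from Vector (± SE) of 70 of the 71 p53 targets tested, by role, for TAD1m (circles, filled where called) and, side by side, for p53WT (triangles). Both share the Vector libraries. Mdm2, Cdkn1a and Btg2 have circles far left of their triangles, while Apaf1, Pltp and Dram1 have circles to the right.

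Direct contrasts with p53WT set out the genes where the mutant and the intact protein differed most among those changed by TAD1m. The 5 highest were Ntn1, Dram1, Add2, Rasl11a and Mme, and the lowest included Thbs1, Cdkn1a, Aldh1a1 and Paqr7. Ntn1, a secreted netrin, was at 0.102 and 0.394 CPM with Vector, 13.97 and 16.98 CPM with TAD1m and 1.06 and 0.546 CPM with p53WT. Its log2 change was 6.02 ± 0.54 against Vector and 4.23 ± 0.33 against p53WT (adjusted p = 1.6e-09), and the first was 5.25 without Vector replicate 1 and 7.13 without Vector replicate 2. Add2, an adducin of the membrane skeleton, stood at 2.65 and 3.22 CPM, 33.8 and 30.1 CPM with TAD1m and 3.31 and 3.14 CPM with p53WT, which put it 3.30 above p53WT. Rasl11a, a RAS-like GTPase, rose by 2.01 and Mme, the membrane peptidase neprilysin, by 1.63, and they lay 2.21 and 2.20 above p53WT. At the other end, Thbs1, the matrix protein thrombospondin, was at 63.1 and 57.5 CPM with Vector, 43.9 and 43.1 CPM with TAD1m and 369.6 and 382 CPM with p53WT. It fell by 0.47 ± 0.08 with TAD1m (adjusted p = 0.00019) and differed from p53WT by -3.11. Aldh1a1, a retinaldehyde dehydrogenase, rose by 0.44 from Vector and differed from p53WT by -2.54. Paqr7, a membrane progestin receptor, rose by 0.33 and differed from p53WT by -2.09, and the rise was not kept without Vector replicate 1 (adjusted p of 0.11) or TAD1m replicate 2 (adjusted p of 0.22).

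**Figure D3:**
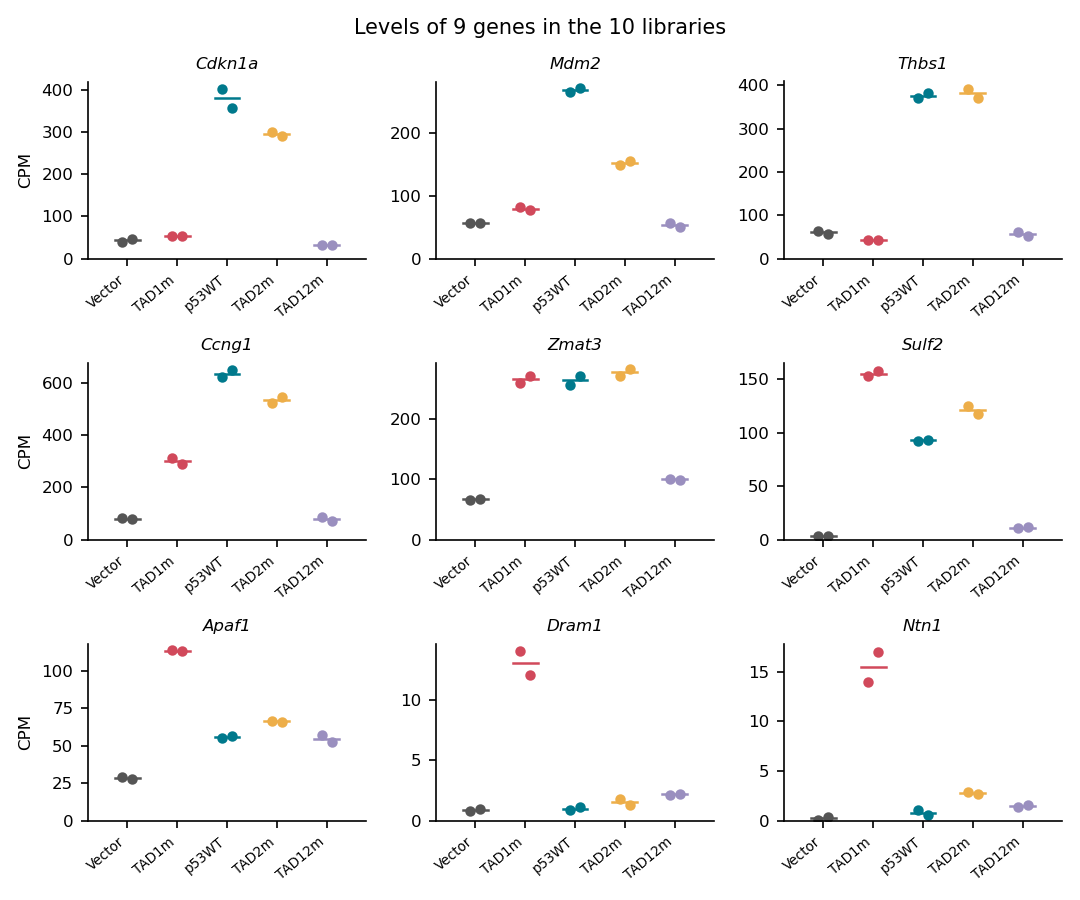
CPM of 9 genes in each of the 10 libraries, with points for libraries and lines for group means (n = 2). Cdkn1a, Mdm2 and Thbs1 are high with p53WT and TAD2m only, Ccng1 with TAD1m lies between Vector and p53WT, Zmat3 and Sulf2 are high with these and TAD1m, and Apaf1, Dram1 and Ntn1 are highest with TAD1m.

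The same genes were read in the other mutants. TAD2m gave 299 and 289.9 CPM for Cdkn1a, 150.1 and 156 CPM for Mdm2 and 391 and 371 CPM for Thbs1, and TAD1m minus TAD2m was -2.46 ± 0.08, -0.94 ± 0.06 and -3.13 ± 0.07, all 3 called. For Dram1 and Ntn1, TAD1m lay 3.08 and 2.48 above TAD2m. Over all p53 targets 35 of 71 were lower and 14 higher with TAD1m than with TAD2m, where the shares among all genes were 17.4% and 18.2%. TAD12m gave 32.6 and 32.6 CPM for Cdkn1a, 10.5 and 11.8 CPM for Sulf2 and 99.9 and 99.02 CPM for Zmat3. Against TAD12m, 47 of 71 targets were higher with TAD1m and 3 lower, with a median difference of 0.73, beside 16.8% higher and 14.2% lower among all genes. Ei24, an endoplasmic reticulum protein of the autophagy pathway, was at 23.7 and 24.1 CPM with TAD12m against 64.7 and 57.5 CPM with TAD1m and 65.2 and 57.3 CPM with Vector.

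Many genes of DNA replication and mitosis fell slightly with TAD1m, and nearly all were higher than with p53WT. Of 35 S-phase genes 14 fell (40%) and 2 rose, with a median log2 change of -0.15. Of 35 G2/M genes 20 fell (57.1%) and 1 rose, with a median of -0.21. Among all genes 17.5% fell and 19% rose. Ccne1, the cyclin of S-phase entry, was at 27.5 and 26.5 CPM with Vector and 16.2 and 17.5 CPM with TAD1m, a log2 change of -0.68 ± 0.10 (adjusted p = 4e-05). Hells, a chromatin remodeller of replicating cells, fell by 0.46, the licensing factor Cdc6 fell by 0.43 and the ribonucleotide reductase subunit Rrm1 fell by 0.41. Ect2, which drives cytokinesis, was at 634 and 569 CPM with Vector, 442 and 422 CPM with TAD1m and 241 and 269 CPM with p53WT. The phosphatase Cdc25b fell by 0.37, the kinetochore protein Nuf2 fell by 0.36 and the mitotic cyclin Ccnb2 fell by 0.36. Directly against p53WT, 33 of 35 S-phase genes and 35 of 35 G2/M genes were higher with TAD1m, beside 20.4% of all genes. The median differences were 0.76 and 0.90. The 3 members that rose were named after their values were seen. They were Gins2 (0.35), with exon overlap over 67.3% of its length, Rrm2 (0.18) and the kinesin Cenpe (0.26). The call of Rrm2 was not kept without Vector replicate 1 (adjusted p of 0.059) or TAD1m replicate 1 (adjusted p of 0.12), and that of Cenpe without TAD1m replicate 1 (adjusted p of 0.086) or replicate 2 (adjusted p of 0.0501). Without TAD1m replicate 2, 12 G2/M genes fell. In bulk RNA, fewer cells in a phase and less transcript per cell cannot be told apart.

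Of 11 tested CDK inhibitors, D cyclins and their partners, 2 rose (18.2% against 19% of all genes) and 3 fell (27.3% against 17.5%). Rb1, the retinoblastoma protein that holds E2F factors, was at 35.5 and 36.6 CPM with Vector and 49.7 and 53.8 CPM with TAD1m, a rise of 0.52 ± 0.08 (adjusted p = 7.5e-05), and lay 0.42 above p53WT. Exons of Rb1 overlap other tested genes over 14.9% of their length. The rises numbered 1 without Vector replicate 1 or TAD1m replicate 1, which cost Cdkn1a its call, and the falls 0 without TAD1m replicate 2.

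Most genes of cholesterol synthesis fell. Of 26 genes of sterol synthesis, uptake and its control 21 fell (80.8% against 17.5% of all genes), 1 rose and 4 did not pass, with a median log2 change of -0.47. Hmgcs1, which makes HMG-CoA, was at 469 and 464 CPM with Vector and 290.4 and 276 CPM with TAD1m, a log2 change of -0.72 ± 0.06 (adjusted p = 4.7e-08). Both TAD1m libraries were lower than both Vector libraries. Of the mevalonate steps that follow, Pmvk (-0.31), Mvd (-0.67), Idi1 (-0.66) and Fdps (-0.69) fell, while Mvk (-0.10) did not pass and was called lower without Vector replicate 1 (adjusted p of 0.047). Sqle, the squalene epoxidase, was at 385 and 379 CPM with Vector and 228 and 232 CPM with TAD1m, a log2 change of -0.74 ± 0.05 (adjusted p = 8.4e-09). Fdft1 (-0.29), Lss (-0.69) and the demethylase Cyp51 (-0.79) fell as well. The late steps fell too, with log2 changes of -0.50 for Msmo1, -0.42 for Nsdhl, -0.55 for Hsd17b7, -0.58 for Sc5d and -0.48 for Dhcr7, while Tm7sf2 (-0.31) did not pass. Ebp fell by 0.25, a call not kept without Vector replicate 1 (adjusted p of 0.061) or TAD1m replicate 1 (adjusted p of 0.066), and Acat2, which supplies acetoacetyl-CoA, fell by 0.26, a call not kept without TAD1m replicate 2 (adjusted p of 0.07).

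Stard4, a sterol carrier, fell by 0.61 and Insig1, which retains the SREBP escort, fell by 0.40. Srebf2, which encodes the factor SREBP-2 (0.08), did not pass. Scap, the escort that carries SREBP to the Golgi, rose from 58.2 and 71.6 CPM to 96.2 and 101 CPM, by 0.61 ± 0.09 (adjusted p = 9.5e-05), with exon overlap over 13.2% of its length. Against p53WT, 15 of the 26 were lower with TAD1m and 4 higher, beside 18.7% and 20.4% of all genes. The median difference was -0.28. Against TAD12m, 20 were lower and 1 higher, beside 14.2% and 16.8% of all genes.

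**Figure D4:**
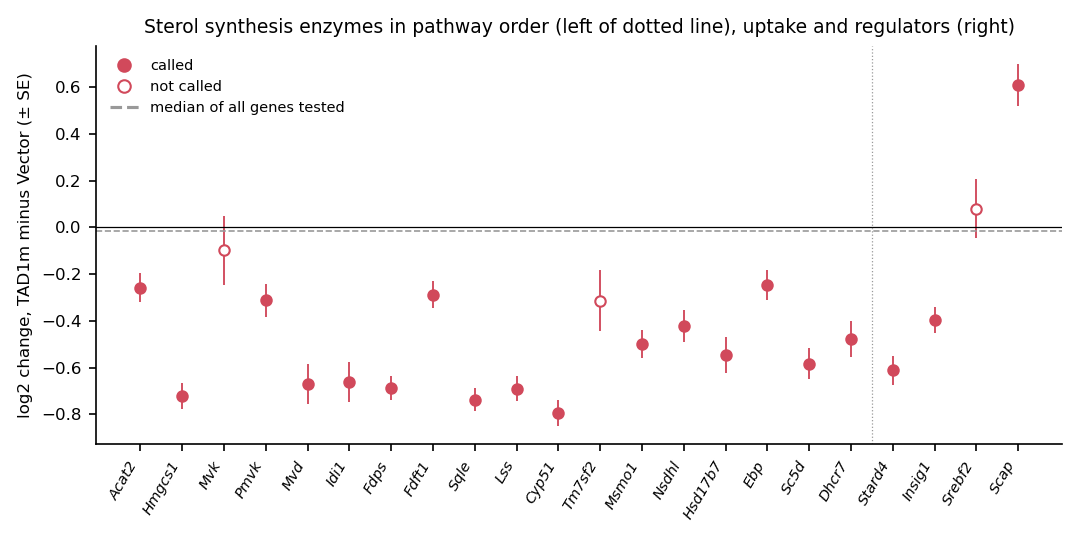
Log2 change, TAD1m minus Vector (± SE), of 22 of the 26 sterol genes, with synthesis enzymes in pathway order left of the dotted line and uptake and control right of it. Filled circles were called. The enzymes plotted lie below 0, Mvk and Tm7sf2 are open, and Scap is the only filled circle above 0.

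Promoters of these genes were read because their members moved together. RefSeq promoter sequences of build GRCm38.p6 matched 10297 of the 15075 genes tested and 18 of the 26 sterol genes. The 250 bases before the start site were searched on both strands for CCAAT, the box bound by NF-Y, and for TCACNCCAC, a form of the sterol regulatory element bound by SREBP. The motifs share no run of letters that would make 1 count as the other. A gene was counted where any of its promoters held the motif. CCAAT stood in 16 of the 18 sterol genes (88.9%) and in 40.6% of all genes matched. TCACNCCAC stood in 1 of the 18 and in 1.29% of all. The box was also above the 40.6% share in other lists, in 22 of 29 G2/M genes (75.9%) and 11 of 17 of fatty acid synthesis (64.7%). It stood in 9 of 14 of the p53 membrane and signalling targets (64.3%), a list that rose, and 16 of 28 of S phase (57.1%). Among genes called higher and lower with TAD1m, CCAAT stood in 41% and 40.4%. Stretches of 150 bases directly before the start site are shown for the 4 sterol genes with the largest falls among those that have 1 promoter in the table and no annotated exon in the stretch, with CCAAT (or ATTGG, its reverse complement) and TCACNCCAC matches in capitals. Hmgcs1 lies at chr13:119690201-119690350 on the plus strand, Mvd at chr8:122443423-122443572 on the minus strand, Sc5d at chr9:42264301-42264450 on the minus strand and Ebp at chrX:8193513-8193662 on the minus strand.
Hmgcs1: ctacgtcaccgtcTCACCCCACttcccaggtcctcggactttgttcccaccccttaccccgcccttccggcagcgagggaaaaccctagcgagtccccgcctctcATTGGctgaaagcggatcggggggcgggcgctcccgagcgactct
Mvd: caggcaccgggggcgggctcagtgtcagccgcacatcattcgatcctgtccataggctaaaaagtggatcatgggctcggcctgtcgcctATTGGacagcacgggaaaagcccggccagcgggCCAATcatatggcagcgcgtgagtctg
Sc5d: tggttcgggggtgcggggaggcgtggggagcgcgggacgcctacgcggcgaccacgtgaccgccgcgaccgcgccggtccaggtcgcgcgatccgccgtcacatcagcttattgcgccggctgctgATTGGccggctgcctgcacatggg
Ebp: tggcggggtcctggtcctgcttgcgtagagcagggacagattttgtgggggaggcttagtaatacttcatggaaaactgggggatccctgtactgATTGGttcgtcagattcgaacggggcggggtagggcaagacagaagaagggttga
Hmgcs1 held 1 CCAAT and 1 TCACNCCAC match in the stretch, Mvd 2 CCAAT matches and Sc5d and Ebp 1 each. A match is a run of letters and was not tested for binding.

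Fatty acid synthesis genes fell in part, with 10 of 20 tested genes lower and 2 higher (median -0.22), beside 17.5% and 19% of all genes. Scd1, the stearoyl-CoA desaturase, was at 614 and 617 CPM with Vector and 444 and 457 CPM with TAD1m, a log2 change of -0.45 ± 0.05 (adjusted p = 5.8e-06). The elongases Elovl6 (-0.50) and Elovl5 (-0.41) fell, and the acyl-CoA synthetase Acsl1 fell by 0.51. Fads3 and Elovl1, named after their values were seen, rose by 0.16 and 0.20. Neither rise held without TAD1m replicate 1 (adjusted p of 0.13 and 0.11), without TAD1m replicate 2 (0.22 and 0.078) or without Vector replicate 1 (0.24 and 0.11), and Fads3 was also not kept without Vector replicate 2 (adjusted p of 0.056).

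Most lysosomal genes rose. Of 36 tested hydrolases 24 rose and 4 fell (median 0.45), beside 19% and 17.5% of all genes. Of 30 membrane and proton pump genes 21 rose and 1 fell (median 0.33). Ctsf, a cathepsin, was at 0.459 and 0.197 CPM with Vector and 14.4 and 14.1 CPM with TAD1m, a rise of 5.34 ± 0.40 (adjusted p = 9.7e-11) that was 6.11 without Vector replicate 1. Man2b1, a mannosidase, was at 69.3 and 68.9 CPM and 235 and 253 CPM, a rise of 1.82 ± 0.06 (adjusted p = 3.1e-12), and Tpp1, a peptidase, rose by 1.68. These 3 lay above p53WT, by 0.72, 0.42 and 0.39. Ctsd, cathepsin D, rose by 1.23 and differed from p53WT by -0.64, with exon overlap over 34.4% of its length. Among membrane genes Sidt2 rose by 1.34, the pump subunit Atp6v0d1 by 0.81, Lamp2 by 0.51 and Scarb2 by 0.49. Ctsh, named after its values were seen, fell by 0.97 ± 0.10 (adjusted p = 4.3e-06). Cd68, in both the lysosomal and the immune marker list, rose from 1.78 and 2.101 CPM to 7.103 and 7.79 CPM, by 1.95, while the immune markers Adgre1, Cd3d, Itgax, Ms4a1 and Nkg7 were at 0 in the 4 libraries. The summed level of the 16 immune markers was 111.2 to 111.9 CPM with Vector and 137.5 to 143.7 CPM with TAD1m, most of it Cd14. Without Vector replicate 1, TAD1m replicate 1 or TAD1m replicate 2, 2 hydrolases fell, and without Vector replicate 2 or TAD1m replicate 2 the only fall among membrane and pump genes was not called. Directly against p53WT, 21 of the 36 hydrolases were lower with TAD1m and 7 higher, beside 18.7% and 20.4% of all genes.

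Of 36 autophagy genes 16 rose (44.4% against 19% of all genes), with a median of 0.17. Wipi1, which marks forming autophagosomes, was at 10.6 and 9.65 CPM with Vector and 33.8 and 31.04 CPM with TAD1m, a rise of 1.68 ± 0.10 (adjusted p = 1e-09). Ulk1 rose by 0.93 and the membrane tag Gabarap by 0.61.

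**Figure D5:**
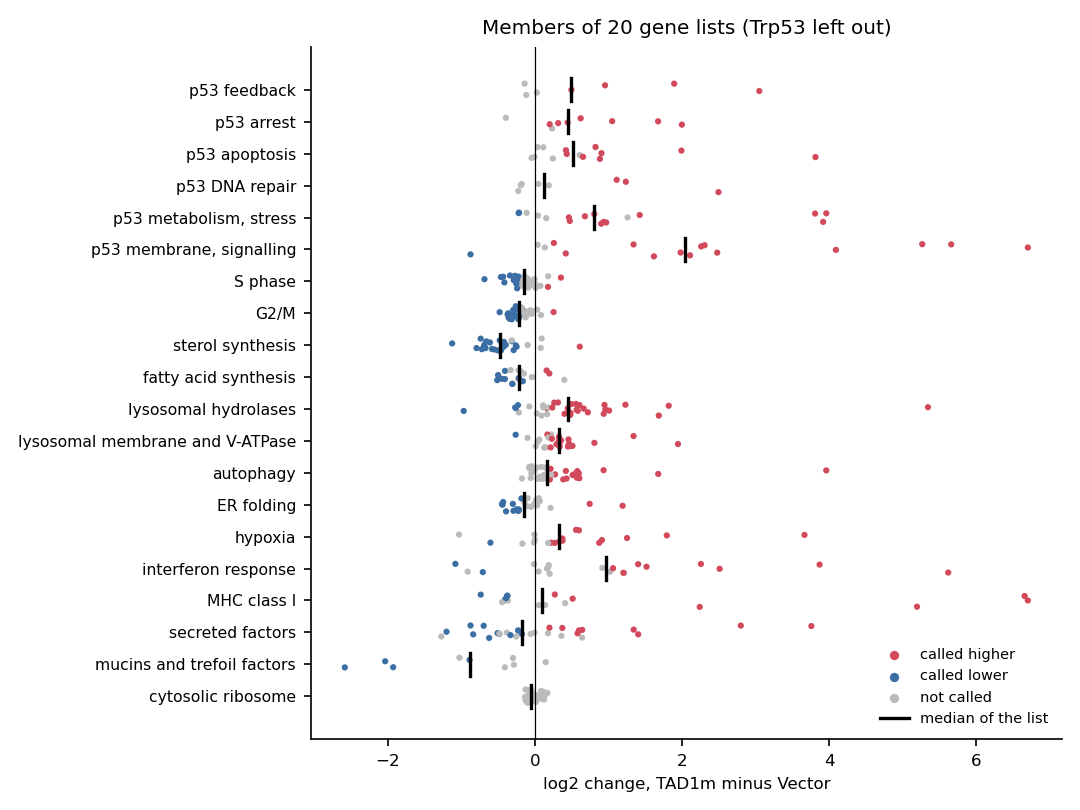
Log2 change, TAD1m minus Vector, of the tested members of 20 gene lists, with 1 point per gene (red called higher, blue called lower, grey not called) and a black bar at each list's median. The p53 lists, lysosomal lists and hypoxia have medians right of 0, sterol synthesis and mucins left of it, and cytosolic ribosome close to 0.

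Of 19 hypoxia genes 12 rose and 1 fell (median 0.33), beside 19% and 17.5% of all genes. The fall was Pfkfb4, named after its values were seen, at -0.60 (adjusted p = 0.04), and it was not called without Vector replicate 1 (adjusted p of 0.083), Vector replicate 2 (0.11) or TAD1m replicate 2 (0.31), with the 4 libraries alone (0.057), with the replicate number as a block (0.0506) or with DESeq2 (0.2). Car12, a carbonic anhydrase, was at 6.98 and 6.303 CPM with Vector and 23.9 and 22.4 CPM with TAD1m, a rise of 1.79 ± 0.11 (adjusted p = 2e-09), and lay 0.86 above p53WT. The mitophagy receptors Bnip3 and Bnip3l rose by 1.25 and 0.60, and the kinase Pdk1, which holds back pyruvate dehydrogenase, by 0.87. Of 23 genes of protein folding in the endoplasmic reticulum 11 fell and 2 rose, and without Vector replicate 1 or TAD1m replicate 2 there were 7 falls. The chaperone Hyou1 fell by 0.45 ± 0.06 (adjusted p = 1.4e-05) and the secreted factor Manf fell by 0.44. Edem1, which hands misfolded proteins to degradation, was at 79.3 and 76.2 CPM with Vector and 178 and 178 CPM with TAD1m, a rise of 1.19 ± 0.06 (adjusted p = 1.2e-10). Ern1, which encodes the stress sensor IRE1, rose by 0.75. Both were above p53WT, by 0.80 and 0.45. Of 35 antioxidant genes 10 rose and 10 fell (28.6% each way), among them Mgst1 (up 1.45) and Hmox1 (up 0.79) against Gclm (-0.67) and Gstm5 (-0.85). The rises numbered 6 without Vector replicate 1. Of 31 genes of the amino acid response 4 rose and 7 fell (12.9% and 22.6%, beside 19% and 17.5% of all genes), and 4 fell without TAD1m replicate 2.

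Genes of the cell surface and matrix included some of the largest changes. Egfr, the receptor of epidermal growth factor, was at 24.1 and 23.1 CPM with Vector, 107 and 114 CPM with TAD1m and 87.2 and 98.8 CPM with p53WT, a rise of 2.22 ± 0.08 over Vector (adjusted p = 2.3e-12). Its ligand Areg fell by 0.77 and the related ligand Nrg1 by 0.48. In the EGF family 6 of 13 fell and 2 rose, and without Vector replicate 1 or TAD1m replicate 1 only Egfr rose. Itgb4, the integrin chain of hemidesmosomes, rose from 7.04 and 7.94 CPM to 92.9 and 98.7 CPM, by 3.68 ± 0.12 (adjusted p = 4.3e-13). Fibronectin (Fn1) rose by 1.27 and the basement membrane collagen Col18a1 by 1.5, while Col6a2, a chain of collagen VI, went from 11.4 and 13.5 CPM to 3.12 and 3.48 CPM, a log2 change of -1.91. The membrane protease Mmp15 was at 3.52 and 3.81 CPM with Vector and 51.1 and 58.2 CPM with TAD1m, a rise of 3.90 ± 0.21 (adjusted p = 1.8e-08). Mmp11 rose by 2.44 and Mmp14 by 0.51. Over 34 matrix and integrin genes 14 rose (41.2%) and 10 fell (29.4%), beside 19% and 17.5% of all genes.

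Most secreted factors were lower with TAD1m than with p53WT. Of 29 tested, 9 rose (31% against 19% of all genes) and 10 fell (34.5% against 17.5%) relative to Vector. Relative to p53WT 21 were lower and 5 higher, beside 18.7% and 20.4% of all genes, with a median difference of -0.79. The falls against Vector numbered 5 without Vector replicate 2 or TAD1m replicate 2 and 6 without TAD1m replicate 1. C3, the central complement protein, was at 1.48 and 0.985 CPM with Vector and 16.6 and 17.7 CPM with TAD1m, a rise of 3.76 ± 0.21 (adjusted p = 4.9e-11), and lay 1.15 above p53WT. Pdgfa, a growth factor for mesenchymal cells, rose by 2.80 with exon overlap over 26.1% of its length, and the cytokine Lif rose by 1.34. The chemokine Ccl20 and the alarmin Il33, named after their values were seen, fell, with log2 changes of -0.84 and -0.69.

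Of 9 mucins and trefoil factors tested, products of mucus-making epithelium, 4 fell (44.4% against 17.5% of all genes) and 5 did not pass. Muc5ac (chr7:141788972-141819231), a gel-forming mucin, was at 8.87 and 10.1 CPM with Vector, 1.44 and 1.71 CPM with TAD1m and 2.69 and 3.21 CPM with p53WT. Predicted genes and pseudogenes apart, its fall was the largest among genes called at 5 CPM or more with no overlap between groups. The log2 change was -2.58 ± 0.21 (adjusted p = 2.1e-08). Tff3 went from 10.7 and 11.2 CPM to 2.31 and 3.04 CPM, a log2 change of -2.03. The membrane mucin Muc1, also a ductal marker, was at 627 and 643 CPM with Vector and 332 and 354 CPM with TAD1m, a log2 change of -0.89 ± 0.05 (adjusted p = 2.3e-09), while p53WT gave 692 and 738 CPM. Muc5b, under 5 CPM and named after its values were seen, fell by 1.93. Of the 7 ductal markers tested Muc1 and Cdh1 fell, Cdh1 (E-cadherin, named after its values were seen) with a log2 change of -0.58, and the other 5 did not pass. The summed level of the 8 ductal markers was 6097 to 6531 CPM with Vector and 5466 to 5585 CPM with TAD1m. Among junction genes Jup, plakoglobin, rose by 1.53 ± 0.11 (adjusted p = 4.2e-06) and the desmosomal cadherin Dsg2 fell by 0.81.

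Antigen presentation was divided. Of 16 genes of the MHC class I route 6 rose and 5 fell (37.5% and 31.25%, beside 19% and 17.5% of all genes). B2m, the light chain, rose from 90.8 and 89.6 CPM to 129 and 129 CPM, by 0.51 ± 0.06 (adjusted p = 3.2e-06). H2-K1, a heavy chain, was at 117 and 125 CPM with Vector and 71.9 and 73.4 CPM with TAD1m, a log2 change of -0.74 ± 0.08 (adjusted p = 1.8e-06), while p53WT gave 194 and 173 CPM. H2-D1 fell by 0.41, and near-identical heavy chain genes could share reads. Tap1, described above, belongs to the same route. Of 28 interferon-response genes listed, 8 did not reach the filter on low counts. They were Ifi44, Ifit1, Isg15, Oas1a, Oas2, Oasl2, Rsad2 and Usp18. Of the 20 tested, 8 rose (40%), 2 fell (10%) and 10 did not pass. The median log2 change of 0.97 covers the tested members only. Fewer fell without Vector replicate 1 or TAD1m replicate 1. Ifi27 rose by 1.52 and Ifi35 by 1.2, and Bst2 fell by 0.71.

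The 34 cytosolic ribosome genes had log2 changes from -0.13 to 0.17, with a median of -0.05. Of 36 nuclear respiratory chain genes 3 rose (8.33% against 19% of all genes) and 5 fell (13.9% against 17.5%), and 3 fell without Vector replicate 1 or TAD1m replicate 1 and 1 without TAD1m replicate 2. The complex III subunit Uqcrc1 had the largest change of those called, at 134 and 150.1 CPM with Vector and 206 and 219 CPM with TAD1m. It rose by 0.58 ± 0.08 (adjusted p = 3.6e-05). Of 10 mitochondrially encoded genes tested 5 rose, but at most 1 did when any one of the 4 libraries was left out. Against p53WT, 8 of the 10 were lower with TAD1m, beside 18.7% of all genes, with a median difference of -0.52.

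Of 32 genes of phospholipid breakdown, a subject of the series, 9 rose (28.1%) and 5 fell (15.6%), beside 19% and 17.5% of all genes. Against p53WT, 20 of them were lower, where 18.7% of all genes were. Abhd4, which releases lipid from N-acyl phosphatidylethanolamine, was at 41.3 and 41.5 CPM with Vector and 175 and 183 CPM with TAD1m, a rise of 2.11 ± 0.06 (adjusted p = 3.4e-13). The phospholipase Plcg2 rose by 1.64 and the glycerophosphodiesterase Gdpd5 by 1.32, while Abhd6 fell by 0.89 ± 0.09 (adjusted p = 5.5e-07). The falls numbered 3 without TAD1m replicate 2. Of 9 genes that build phosphatidylethanolamine 3 rose (33.3% against 19%), and 1 without TAD1m replicate 1. Pisd, which makes it in mitochondria, was at 34.97 and 41.7 CPM with Vector and 47.7 and 45.3 CPM with TAD1m, a rise of 0.28 not kept without Vector replicate 1 (adjusted p of 0.24) or TAD1m replicate 1 (adjusted p of 0.12), with exon overlap over 20.9% of its length. Lpcat4 and Lpcat1, which rebuild phospholipids from lysophospholipids, fell, with log2 changes of -0.75 and -0.49.

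The largest single changes cut across these lists. Predicted genes and pseudogenes were left out, 3 of which changed as much as the 20 genes named here by size. The 10 highest, at 5 CPM or more on average with no overlap between groups, were Ces2e, Angptl2, Trp53, Ntn1, Sulf2, Ctsf, Zfp365, Slc4a11, Asap3 and Cercam. Ces2e (chr8:104926260-104934672), a carboxylesterase that hydrolyses esters and lipids, had 1 count in the 2 Vector libraries together and 804 with TAD1m. The ratio of its levels was 846, with a 95% counting interval of 151 to 33470.4. Its level was 22.8 and 25.97 CPM with TAD1m and 30.8 and 33.7 CPM with p53WT, and both TAD12m libraries were at 0. Reads of close Ces2 paralogs cannot be told apart with certainty. Angptl2, a secreted angiopoietin-like protein, had 2 counts with Vector and 377 with TAD1m, a ratio of 198 (54.6 to 1644), and at 11.5 and 11.3 CPM it lay 1.95 above p53WT. Slc4a11, a membrane transporter, went from 2.24 and 1.77 CPM to 56.9 and 52.6 CPM, a rise of 4.75, and lay 1.00 above p53WT. Asap3, an ARF GTPase activator, rose by 4.55 (5.22 without Vector replicate 2) and Cercam, a cell adhesion molecule, by 4.14.

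The 10 lowest were Muc5ac, Ranbp3l, Mucl3, Tff3, Col6a2, Apoc2, Tm6sf2, Det1, Aqp5 and Fmnl1. Mucl3, a mucin-like protein, was at 313 and 331 CPM with Vector, 74.9 and 78.8 CPM with TAD1m and 168 and 165 CPM with p53WT, a log2 change of -2.07 ± 0.06 (adjusted p = 2.5e-13). The water channel Aqp5 went from 83.3 and 72.4 CPM to 27.6 and 28.3 CPM, a log2 change of -1.48. Det1, part of a ubiquitin ligase adaptor, was at 13 and 12.9 CPM with Vector, 4.04 and 4.37 CPM with TAD1m, 4.42 and 4.03 CPM with TAD12m and 13.8 and 11.3 CPM with p53WT. It fell by 1.62 ± 0.15 (adjusted p = 1.7e-07), differed from p53WT by -1.58 and differed from TAD12m by -0.01 ± 0.17 (adjusted p = 0.98). Ranbp3l fell by 2.27 (log2 change -1.68 without Vector replicate 1), a call not kept without TAD1m replicate 2 (adjusted p of 0.078) and without the filter on low counts (adjusted p = 0.058). Apoc2 fell by 1.67, but 79.5% of its exon length overlaps other tested genes. Tm6sf2, which acts in lipid export, fell by 1.63, and the formin Fmnl1 fell by 1.37. Of these 10, Tff3 and Ranbp3l were not lower with TAD1m than with p53WT, with differences of 0.67 (adjusted p = 0.045) and 1.21 (adjusted p = 0.33), and the other 8 were.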

How the data were processed

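RNA was extracted with TRIzol and sequenced from stranded mRNA libraries, per the labels' protocols. Reads were aligned with STAR 2.6.1c to mm10, per the submitters' processing notes, and HOMER counted them over GENCODE exons on both strands, per the file headers. The deposited values are estimated counts with no normalization, of which 18.5% to 19.9% in each library were not whole, and they were rounded here to whole numbers. Of 55401 genes, 15075 passed edgeR's filterByExpr (edgeR 4.0.16, R 4.3.3). Libraries were scaled by TMM (factors 0.979 to 1.02), and edgeR's quasi-likelihood test with robust fit used group means over all 10 KPnull libraries, with 5 residual degrees of freedom and Benjamini-Hochberg adjustment over all genes tested. CPM are counts per 1000000 counts of each library, with the library total multiplied by its TMM factor. The common biological coefficient of variation was 0.0548, so depth mainly limits genes with few counts. For genes with 1 to 3 Vector counts an exact 95% interval of the ratio covers counting error only. The procedure was run on simulated counts with a smaller spread and fewer changed genes than these data, so that run cannot give its error rate here. Alternatives were DESeq2 1.42.0, limma-voom (limma 3.58.1), RLE and upper-quartile factors, other library sizes, filters and rounding, the 4 libraries alone, a replicate block and each library left out.

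Named genes are Trp53, Cdkn1a, Mdm2 and Ccng1, tested p53 targets and sterol genes, up to 4 called members of each other list with the largest change and a mean of at least 5 CPM, and the 10 highest, 10 lowest and 5 and 5 against p53WT with no overlap between groups, without predicted genes and pseudogenes. Others are marked as chosen after their values were seen. The comparison and the lists were chosen with earlier results of these data known. Exon overlap was computed with the annotation supplied with the reference. RefSeq promoters are of GRCm38.p6, the same coordinates as mm10. A few genes that belong to the lists and counts are not reported by name here and not labelled in the plots.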

Additional observations from a re-analysis of the deposited data

How the results depend on the processing

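With TAD1m replicate 2 left out, the genes called lower than Vector fell from 2634 to 1593 and those separating TAD1m from TAD12m from 4678 to 2760. Leaving out each library of the groups compared in turn gave 3679 to 5228 calls against Vector in all (2086 to 2761 higher and 1593 to 2467 lower), 4156 to 4796 against p53WT, 3744 to 3909 against TAD2m and 2760 to 4751 against TAD12m. The other alternatives run moved no count of calls over 1.5 times, and DESeq2 gave 4060 calls against Vector where edgeR gave 5494. Nothing in the labels says that replicate numbers pair samples. Deviations of same-numbered samples correlated at 0.191 between Vector and TAD1m, and over the 10 pairs of groups from -0.453 (p53WT and TAD12m) to 0.612 (Vector and TAD12m), with 4 of the 10 over 0.1, so the numbers were taken as not pairing the samples, and the fit with the replicate number as a block gave 5409 calls. Of 224 named genes called, 187 kept the call under every alternative that tested them, 37 lost it under at least one and 0 changed direction. Some low genes were not tested under every filter. Of 43 list medians, 8 changed sign under an alternative, each under 0.1 in size. Upper-quartile scaling gave 2673 higher and 3112 lower genes. Agreement between duplicates differed, with a chi-square of 6.26 per degree of freedom for Vector and 1.98 for TAD1m. Genes with few Vector counts, such as Ces2e, Angptl2, Tap1 and Ntn1, have wide ratios at this depth.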

Other observations

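Of 17 YAP output genes listed, 2, Ctgf and Cyr61, were not found under these symbols and were not examined. Of the 15 tested, 6 rose with TAD1m (40% against 19% of all genes) and 1 fell. Amotl1, an angiomotin that binds YAP, was at 8.72 and 9.85 CPM in the Vector libraries and 26.6 and 29.6 CPM in the TAD1m libraries, a log2 change of 1.6 ± 0.10 (adjusted p = 3e-09, edgeR). The phosphatase Ptpn14 rose from 80.2 and 87.8 CPM to 204 and 199 CPM, by 1.26, and the receptor kinase Axl rose by 0.62, while tissue factor (F3) fell by 0.46. Without Vector replicate 1, 2 YAP output genes fell. Of 15 WNT genes 3 rose and 4 fell (20% and 26.7%, beside 19% and 17.5% of all genes). Wnt7a, a secreted ligand, was at 58.3 and 68.3 CPM with Vector, 43.4 and 42.1 CPM with TAD1m and 144 and 134 CPM with p53WT, so it lay on opposite sides of Vector with the mutant and the intact protein. TAD1m minus p53WT was -1.70 ± 0.08 for Wnt7a (adjusted p = 8e-11). The transcription factor Tcf7 fell from 7.34 and 7.42 CPM to 3.35 and 2.597 CPM, a log2 change of -1.30, and the receptor Fzd5 fell by 0.41. Bmp4, a BMP ligand, was at 9.89 and 10.6 CPM with Vector, 7.56 and 6.72 CPM with TAD1m and 20.2 and 19.7 CPM with p53WT, and its log2 change of -0.51 was not kept without TAD1m replicate 2 (adjusted p of 0.051). Sparc, a matrix-binding protein, was at 152 and 154 CPM, 102 and 108 CPM and 212 and 225 CPM in the same order, a log2 change of -0.54 ± 0.06 (adjusted p = 1.8e-06).

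Among genes of iron handling, Tfrc, the transferrin receptor, was at 796 and 715 CPM with Vector and 495 and 483 CPM with TAD1m, a log2 change of -0.63 ± 0.06 (adjusted p = 6.6e-07), and the iron transporter Slc11a2 fell by 0.53. Steap3, a ferrireductase of endosomes, went from 4.996 and 5.25 CPM to 19.98 and 20.97 CPM, a rise of 2 ± 0.16 (adjusted p = 4.9e-08), and lay 1.13 above p53WT. In the list of ferroptosis and iron genes 5 of 21 rose and 4 fell (23.8% and 19.1%, beside 19% and 17.5% of all genes). Fewer fell without TAD1m replicate 2. Of 22 glycolysis genes 6 rose and 3 fell (27.3% and 13.6%), beside 19% and 17.5% of all genes, and 1 fell without TAD1m replicate 2. The isomerase Gpi1 rose from 340.1 and 347 CPM to 485 and 506 CPM, by 0.53, while the lactate carrier Slc16a1 went from 418 and 386 CPM to 300.0 and 288 CPM, a log2 change of -0.45. Genes annotated as antisense were called higher in 94 and lower in 37 of 874 tested (10.8% and 4.23%, both under the shares of all genes), and counting on both strands cannot separate them from their partners.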
